A study of Homo sapiens with 14 samples.

Results

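Serpins are a family of serine protease inhibitors, and 9 of their genes were followed in LNCaP, a human prostate cancer cell line that responds to androgen: SERPINA1, SERPINA3, SERPINB1, SERPINB5, SERPINB6, SERPINB7, SERPINB9, SERPINE2 and SERPINI1. They were chosen by their measured signal: SERPINA3 and SERPINB7 were higher when EZH2 was returned to knocked-down cells and SERPINI1 was higher with TSA. Those comparisons therefore describe how the genes were picked: they are given with no p-value for these genes, and a count of those past the threshold there supports nothing. A probe set is the set of short probes with which an Affymetrix array reads 1 transcript or more. It was taken where the platform annotation holds exactly 1 gene symbol and that symbol is 1 of these genes. That gave 18 probe sets of 54613 for 8 of the 9 genes. SERPINB6 had no such probe set and was not analysed here. SERPINA1 and SERPINB1 have 4 probe sets each, SERPINB9 has 3, SERPINB5 and SERPINE2 have 2 each, and SERPINA3, SERPINB7 and SERPINI1 have 1 each. The bright ones are 202376_at for SERPINA3, 206421_s_at for SERPINB7, 212190_at for SERPINE2, 205352_at for SERPINI1 and 204855_at for SERPINB5, and a value given for one of these genes is from that probe set unless another is named.

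The 14 arrays form 7 groups, each with 2 arrays. The drug experiment kept cells without transfection for 24 h in 5 uM trichostatin A (TSA), which blocks histone deacetylases, in 10 uM Roscovitine, which blocks cyclin-dependent kinases, or in 0.1% DMSO, the solvent. In the transfection experiment, all at 60 h, cells carried the EZH2 siRNA together with a plasmid for EZH2 that the siRNA cannot target, either with alanine in place of threonine T350 (T350A add-back) or without that change (wild-type add-back), or the EZH2 siRNA alone (si-EZH2), or a control siRNA (si-Control). EZH2 is the methyltransferase of the Polycomb repressive complex PRC2, and the study asked how phosphorylation of T350 bears on its repression of genes. None of the 7 groups is labelled as receiving an empty plasmid, so the plasmid transfection and the returned EZH2 cannot be told apart. The labels number the replicates without saying whether they were separate cultures, so p-values measure only the spread between these samples, which may be technical.

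A serpin traps its protease: the enzyme cuts an exposed loop of the inhibitor, the inhibitor changes shape, and both stay locked in a covalent complex. Clade A, E and I members are mostly secreted, whereas clade B members lack a classical signal peptide and act mostly inside the cell. In the prostate the best known pairing is that of alpha-1-antichymotrypsin, the product of SERPINA3, with prostate-specific antigen (KLK3) in blood, and maspin, the product of SERPINB5, has been studied as a tumour suppressor in breast and prostate.

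The start regions of 4 genes with a bright probe set are shown. SERPINA3 and SERPINB7 were both high in the add-backs, while SERPINI1 and SERPINB5 were high with TSA. SERPINE2, which was also high with TSA, is not shown. Each line holds the 250 bases before a RefSeq transcript start (build GRCh38.p14), 5′ to 3′ on the gene's own strand, which is the plus strand for these 4 genes. SERPINB7 has 3 annotated starts. Capitals mark matches, on either strand, to 6 motifs searched: kappaB, STAT (TTCNNNGAA), AP-1 (TGANTCA), C/EBP (TTGCNNAA or TTNNGCAA), the TATA box (TATAAA) and Sp1 (GGGCGG).
SERPINA3, chr14:94612141-94612390: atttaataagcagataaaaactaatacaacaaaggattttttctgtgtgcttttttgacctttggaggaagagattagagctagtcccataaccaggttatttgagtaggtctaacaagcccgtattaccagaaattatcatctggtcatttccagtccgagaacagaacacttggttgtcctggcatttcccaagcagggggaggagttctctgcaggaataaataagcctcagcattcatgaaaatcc
SERPINB7 start 1, chr18:63752807-63753056: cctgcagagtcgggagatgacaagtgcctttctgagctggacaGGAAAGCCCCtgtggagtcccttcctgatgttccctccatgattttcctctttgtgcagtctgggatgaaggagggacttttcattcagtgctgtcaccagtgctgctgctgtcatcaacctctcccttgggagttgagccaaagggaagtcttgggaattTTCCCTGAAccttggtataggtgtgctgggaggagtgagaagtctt
SERPINB7 start 2, chr18:63775168-63775417: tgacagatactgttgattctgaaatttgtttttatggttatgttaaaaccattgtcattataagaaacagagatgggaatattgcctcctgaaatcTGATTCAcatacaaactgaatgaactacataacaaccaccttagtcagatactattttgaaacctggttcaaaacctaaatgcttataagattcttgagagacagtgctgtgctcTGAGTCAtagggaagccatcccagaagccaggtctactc
SERPINB7 start 3, chr18:63777531-63777780: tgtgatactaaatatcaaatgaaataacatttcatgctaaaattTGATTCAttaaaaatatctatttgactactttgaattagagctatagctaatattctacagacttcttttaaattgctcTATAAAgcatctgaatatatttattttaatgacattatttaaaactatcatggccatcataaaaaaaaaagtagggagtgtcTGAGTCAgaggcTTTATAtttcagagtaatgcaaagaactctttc
SERPINI1, chr3:167735471-167735720: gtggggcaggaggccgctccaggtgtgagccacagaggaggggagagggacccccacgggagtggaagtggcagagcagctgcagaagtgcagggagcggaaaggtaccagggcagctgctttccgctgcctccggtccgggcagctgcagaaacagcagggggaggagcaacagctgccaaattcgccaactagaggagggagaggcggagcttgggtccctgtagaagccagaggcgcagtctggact
SERPINB5, chr18:63476708-63476957: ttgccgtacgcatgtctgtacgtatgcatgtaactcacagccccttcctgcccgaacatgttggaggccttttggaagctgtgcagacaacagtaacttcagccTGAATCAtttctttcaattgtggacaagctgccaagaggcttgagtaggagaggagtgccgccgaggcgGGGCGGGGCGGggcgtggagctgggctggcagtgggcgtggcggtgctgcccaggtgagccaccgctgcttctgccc

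The SERPINA3 and SERPINI1 windows held none of the 6 motifs. The window of SERPINB7 start 1 held a kappaB match starting 207 bases before the start and a STAT match starting 46 bases before it. That of start 2 held 2 AP-1 matches, and that of start 3 held 2 AP-1 matches and 2 TATA box matches. The SERPINB5 window held 1 AP-1 match and 2 overlapping Sp1 matches. Of 35116 RefSeq windows of the same length, 9.96% held a kappaB match, 6.57% a STAT match, 6.57% an AP-1 match, 9.05% a C/EBP match, 10.7% a TATA box match and 42.6% an Sp1 match. These matches describe the letters of the windows, and the arrays do not show which start was used.

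Array medians lay between 107.2 and 117.0 on the linear signal scale, with 31.7% to 34.5% of the probe sets of an array below 50. EZH2 itself averaged 393 in si-EZH2, against 1191 in si-Control, and was at 816 in the T350A add-back and 831 in the wild-type add-back. The cells carried prostate luminal transcripts: KLK3 averaged 10266 and KRT18, a luminal keratin, 7253 in DMSO. As group means, the blood cell markers ran from CD14 at 1.00 to 1.93 up to HBB at 406 to 485 with CD3E at 187 to 248.6, and the hepatocyte markers from albumin (ALB) at 52.4 to 91.6 up to TTR at 139.6 to 231, so that some markers of both lists lay above the array medians. The replicates of Roscovitine and those of the T350A add-back differed in a like way, which does not show which array of each group was unusual. Over 13424 genes, which are not independent of each other, the replicate differences of these groups had r = 0.702, while every other pair of groups lay between -0.269 and 0.28.

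Only 5 of the 18 probe sets reached a group mean of 100, those of SERPINA3, SERPINB7, SERPINB5, SERPINE2 and SERPINI1. Over the whole array 59.0% of probe sets did. The other 13 stayed under 100 on every array, 8 of all 18 stayed under 50 on all 14 arrays, and at such signals a log2 difference depends on the 16 that was added to each signal before taking log2. Differences below are in log2(signal + 16), ± SE from limma fitted to all 14 arrays, and each group mean rests on n = 2. In lysates of many cells, fewer expressing cells and less RNA per cell cannot be told apart.

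**Figure D1:**
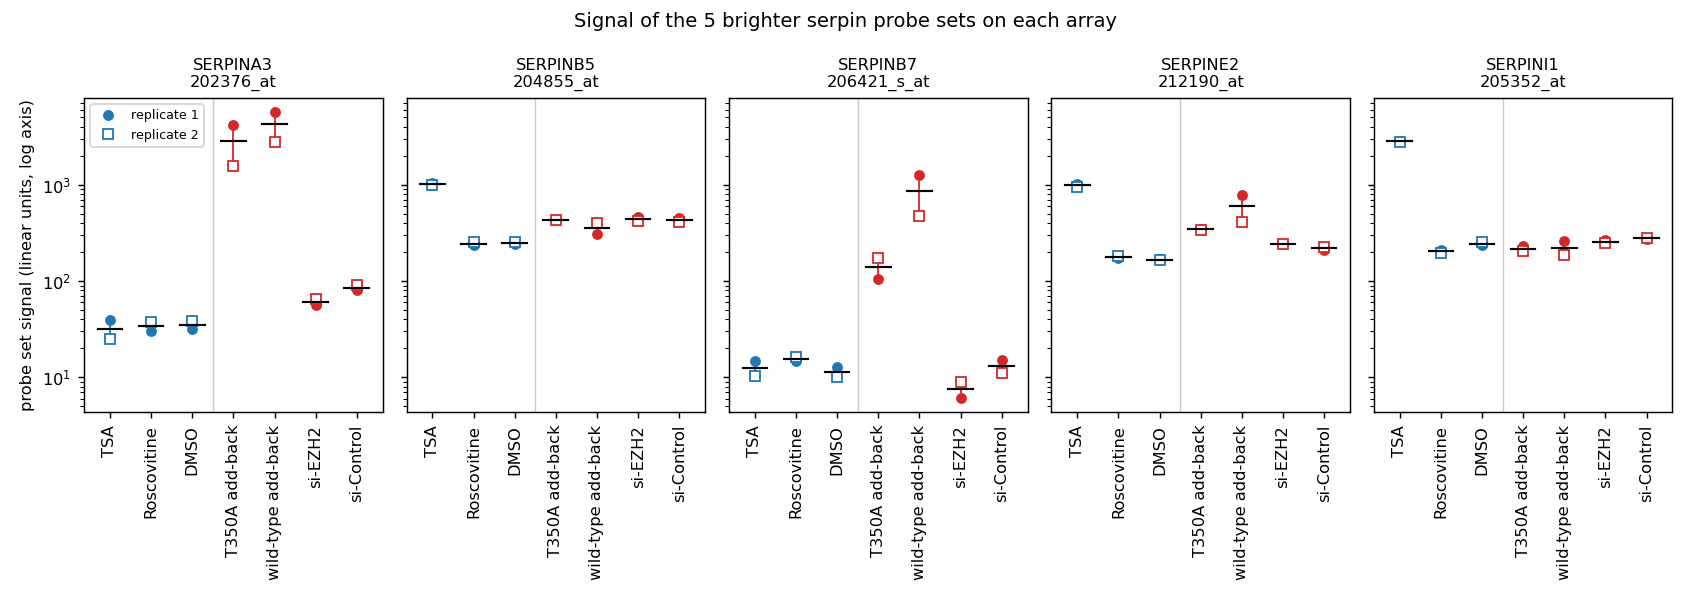
Signal (linear units on a log axis) of the 5 brighter serpin probe sets on each of the 14 arrays, by group, with circles for replicate 1, squares for replicate 2, a black bar for the mean, blue for the drug experiment and red for the transfection experiment. SERPINA3 and SERPINB7 are high in both add-back groups, SERPINI1 in TSA alone, SERPINB5 most in TSA, and SERPINE2 in TSA and, at lower signal, in the wild-type add-back.

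SERPINA3 encodes the acute-phase protein alpha-1-antichymotrypsin, an inhibitor of cathepsin G and chymase. Its signal was 4186 and 1567 in the T350A add-back and 5669 and 2807 in the wild-type add-back, against 57.2 and 65.3 in si-EZH2 and 80.8 and 90.3 in si-Control. The drug arrays lay lower still, at 39.2 and 25.1 with TSA, 30.4 and 37.8 with Roscovitine and 31.5 and 38.5 in DMSO. Every add-back array was thus above every other array, while the arrays of both add-back groups overlapped each other. The higher array exceeded the lower by 2.67 times in the T350A add-back and 2.02 times in the wild-type add-back, against 1.14 times in si-EZH2. The log2 difference from si-EZH2 was 5.06 ± 0.43 for the T350A add-back and 5.70 ± 0.43 for the wild-type add-back. Over the fits without 1 array, the first of these ran from 4.36 to 5.77. Both comparisons use the same si-EZH2 arrays.

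SERPINB7 encodes megsin, a serpin known from kidney mesangial cells and the epidermis, whose loss causes a palmoplantar keratosis. It was near the bottom of the signal range outside the add-backs. It had 106 and 174 in the T350A add-back and 1264 and 476 in the wild-type add-back, against 6.14 and 9.05 in si-EZH2 and 15.3 and 11.2 in si-Control. In the drug experiment it lay at 14.8 and 10.3 with TSA, 14.7 and 16.1 with Roscovitine and 12.7 and 10.2 in DMSO. The 3 levels, wild-type add-back, T350A add-back and all other groups, did not overlap. The log2 difference from si-EZH2 was 2.70 ± 0.37 for the T350A add-back and 5.08 ± 0.37 for the wild-type add-back. Over the fits without 1 array, the T350A value ran from 2.38 to 3.01. The size depends on the number added before taking log2: the wild-type value was 3.57 when 64 was added to each signal and 6.52 when 1 was added, and the T350A value was 1.49 with 64 and 4.02 with 1.

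SERPINE2 encodes protease nexin-1, a secreted inhibitor of thrombin, urokinase and plasmin. It had 1027 and 956 with TSA and 172 and 181 with Roscovitine, against 168 and 165 in DMSO. In the transfection experiment it had 352 and 343 in the T350A add-back and 782 and 412 in the wild-type add-back, against 241 and 246 in si-EZH2 and 212 and 227 in si-Control. No neighbouring groups overlapped in the order TSA, wild-type add-back, T350A add-back, si-EZH2, si-Control, Roscovitine, DMSO, although the steps at its lower end were small. The log2 difference was 2.46 ± 0.22 for TSA minus DMSO, 0.49 ± 0.22 for the T350A add-back minus si-EZH2 and 1.17 ± 0.22 for the wild-type add-back minus si-EZH2. The wild-type value rests on arrays far apart: it was 0.72 without wild-type add-back replicate 1 and 1.62 without replicate 2. The second probe set, 227487_s_at, was dim, at a mean of 55.5 with TSA and 27.8 in DMSO, with a difference of 0.72 ± 0.23, and it showed -0.10 ± 0.23 for the T350A add-back minus si-EZH2 and 0.15 ± 0.23 for the wild-type add-back minus si-EZH2.

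SERPINI1 encodes neuroserpin, an inhibitor of tissue plasminogen activator made mostly by neurons. It had 2850.0 and 2807 with TSA and 213 and 195 with Roscovitine, against 235 and 256 in DMSO. The transfected groups stayed close to DMSO, with 231 and 205 in the T350A add-back, 259 and 185 in the wild-type add-back, 266 and 247 in si-EZH2 and 277 and 283 in si-Control. Below TSA and si-Control, all neighbours in the order of means overlapped. The TSA difference was 3.44 ± 0.14, the largest of the 18 probe sets in that comparison.

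SERPINB5 encodes maspin, a clade B protein that does not inhibit proteases in the usual way. It had 1054 and 1006 with TSA and 235 and 252 with Roscovitine, against 244 and 257 in DMSO. It lay at 433 and 433 in the T350A add-back and 305 and 401 in the wild-type add-back, against 460.0 and 417 in si-EZH2 and 449 and 410 in si-Control. All transfected arrays therefore stood between the TSA arrays and the DMSO arrays, without overlap with either. The log2 difference for TSA minus DMSO was 1.97 ± 0.12, and that for the wild-type add-back minus si-EZH2 was -0.31 ± 0.12, which became -0.12 without wild-type add-back replicate 1 and -0.50 without replicate 2. The other SERPINB5 probe set stayed between 10.4 and 31.1 on all arrays.

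The remaining members gave little signal. SERPINA1, which encodes alpha-1-antitrypsin, the main plasma inhibitor of neutrophil elastase, had its brightest probe set, 211428_at, between 43.1 and 80.4 on the 14 arrays and its other 3 between 2.11 and 54.05. One of them, 202833_s_at, was at 54.05 and 54.0 with TSA, against 21.0 and 24.0 in DMSO. SERPINB9, the intracellular inhibitor of granzyme B, reached 83.1 at most (209723_at). Its second probe set, 242814_at, was at 33.0 and 13.5 in the T350A add-back and 50.8 and 49.8 in the wild-type add-back, against 23.4 and 16.3 in si-EZH2, while 209723_at showed -0.17 ± 0.20 for the wild-type add-back minus si-EZH2. SERPINB1, an inhibitor of neutrophil elastase and cathepsin G, reached at most 35.0 with any of its 4 probe sets. Its probe set 239213_at was at 34.1 and 35.0 with TSA, against 2.19 and 13.1 in DMSO, and at 32.3 and 17.0 in si-EZH2.

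In the comparisons that picked the genes, 5 of the 18 probe sets passed an adjusted p under 0.05 upward with TSA (both of SERPINE2, and 1 each of SERPINI1, SERPINB5 and SERPINB1), where 15.5% of all 54613 probe sets did and 16.3% passed downward. In the T350A add-back against si-EZH2 2 passed upward (SERPINA3 and SERPINB7), where 0.287% of all did and 0.0549% passed downward. In the wild-type add-back, set against si-EZH2, 3 passed upward (SERPINA3, SERPINB7 and SERPINE2), where 2.2% of all did and 4.17% passed downward. None of the 18 passed downward in these 3 comparisons. The median difference of the 18 was 0.29 for TSA, -0.11 for the T350A add-back and -0.11 for the wild-type add-back, against 0.01, 0.0034 and -0.04 over all probe sets. The groups that entered these counts also entered the choice of the genes, so the counts only describe it. Against si-Control, the other reference, SERPINA3 differed by 4.67 ± 0.43 in the T350A add-back and 5.30 ± 0.43 in the wild-type add-back, SERPINB7 by 2.39 ± 0.37 in the T350A and 4.77 ± 0.37 in the wild-type add-back, and SERPINE2 by 0.62 ± 0.22 in the T350A and 1.31 ± 0.22 in the wild-type add-back. These values share the add-back arrays with those against si-EZH2.

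Whether the alanine at T350 altered the response was tested by the T350A add-back minus the wild-type add-back. The choice of genes did not use this difference, but its arrays took part in that choice. SERPINA3 and SERPINB7 were picked as high on these arrays, so their p-values here are not independent of that choice. SERPINB7 averaged 140.3 ± 48.2 in the T350A add-back and 870.3 ± 557 in the wild-type add-back (SD, n = 2 each), a log2 difference of -2.38 ± 0.37 with a 95% confidence interval of -3.22 to -1.54. It did not pass in limma after adjustment over all probe sets (adjusted p = 0.0872, unadjusted p = 0.000122). The SE and interval rest on 1 estimate of spread for all 7 groups. The higher SERPINB7 array exceeded the lower by 2.65 times in the wild-type and 1.64 times in the T350A add-back. In the other groups it did so by at most 1.47 times, so the interval may be too narrow for this comparison. Both T350A arrays were below both wild-type arrays. Without wild-type add-back replicate 2 the difference was -3.07, and without replicate 1 it was -1.69. Without T350A add-back replicate 2 it was -2.70. Each of these fits leaves 1 array in a compared group, whose spread then drops out of the estimate. Over the 10 settings other than leaving out 1 array, the limma adjusted p ran from 0.0105 to 0.390. The highest came from the fit to the transfection experiment alone. SERPINE2 averaged 347 ± 5.81 in the T350A add-back and 597 ± 261 in the wild-type add-back, a difference of -0.69 ± 0.22 (adjusted p = 0.264). The SERPINE2 difference was -0.24 without wild-type add-back replicate 1 and -1.13 without replicate 2. SERPINE2 passed under 0 of the 10 other settings. SERPINA3 averaged 2876 ± 1852 in the T350A add-back and 4238 ± 2023 in the wild-type add-back, a difference of -0.64 ± 0.43 (interval -1.61 to 0.34, adjusted p = 0.548). Leaving out T350A add-back replicate 2, one of the arrays that stood apart, turned the SERPINA3 difference to 0.07. SERPINB5 differed by 0.30 ± 0.12 (adjusted p = 0.340), with 0.11 without wild-type add-back replicate 1 and 0.48 without replicate 2, and SERPINI1 by -0.0080 ± 0.14 (interval -0.32 to 0.30, adjusted p = 0.998). In all, 0 of 18 probe sets passed, against 0.0348% of all probe sets, and 4 of 18 had an unadjusted p under 0.05, against 13.4% of all. Those 4 belonged to SERPINB7, SERPINE2, SERPINB5 and SERPINB9 (242814_at).

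**Figure D2:**
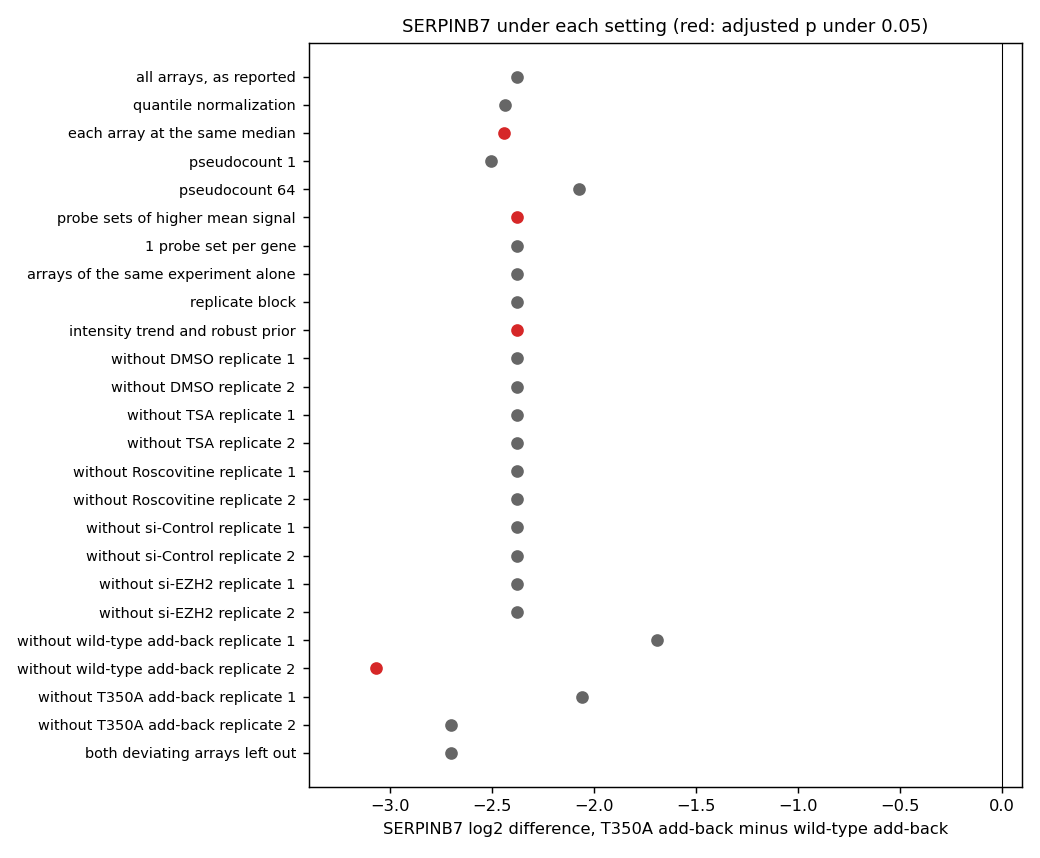
SERPINB7 log2 difference, T350A add-back minus wild-type add-back, in the reported fit and under each of 14 fits without 1 array and 10 other settings, with red where the adjusted p was under 0.05. The difference ran from -3.07 to -1.69 and stayed below 0 in all of them. It passed under 3 of the 10 other settings. The red point without wild-type add-back replicate 2 comes from a fit that leaves 1 array in that group.

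Knockdown alone left the serpins without a call. For si-EZH2 minus si-Control limma called 0 of 18 probe sets, against 0.233% of all, and 0 of 18 had an unadjusted p under 0.05, against 8.94% of all. SERPINA3 averaged 61.2 ± 5.76 in si-EZH2 and 85.6 ± 6.73 in si-Control, a difference of -0.40 ± 0.43 with an interval of -1.37 to 0.58. SERPINA3 and SERPINB7 were picked as higher than these same si-EZH2 arrays, so their values here are not independent of that choice. The fit holds 1 estimate of spread for all 7 groups, and the SERPINA3 replicates were farthest apart in the add-backs. SERPINB5 was at 439 ± 30.4 in si-EZH2 and 429 ± 28.0 in si-Control (0.029 ± 0.12, interval -0.24 to 0.30). SERPINI1 had -0.12 ± 0.14 (interval -0.43 to 0.19), SERPINE2 0.14 ± 0.22 (interval -0.36 to 0.64) and SERPINB7 -0.31 ± 0.37 (interval -1.15 to 0.53).

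Roscovitine against DMSO likewise gave 0 of 18 calls in limma, against 1.26% of all probe sets, and 0 of 18 with an unadjusted p under 0.05, against 12.5% of all. SERPINI1 averaged 204 ± 12.7 with Roscovitine and 246 ± 15.0 in DMSO, a difference of -0.25 ± 0.14 (interval -0.56 to 0.06, adjusted p = 0.505). This comparison shares its DMSO arrays with the one that picked SERPINI1. SERPINE2 had 0.08 ± 0.22 (interval -0.43 to 0.58) and SERPINB5 -0.04 ± 0.12 (interval -0.31 to 0.23), next to 2.46 and 1.97 for TSA at the same 24 h. Over the fits without 1 array the SERPINI1 difference ran from -0.31 to -0.19.

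Cells with a control siRNA at 60 h were also set against the untransfected DMSO cells at 24 h, where transfection, time and solvent cannot be told apart. SERPINB5 rose: it averaged 429 ± 28.0 in si-Control and 251 ± 9.39 in DMSO, a difference of 0.74 ± 0.12 (limma adjusted p = 0.0088). It was the only 1 of 18 called, against 5.62% of all probe sets, and 2 of 18 had an unadjusted p under 0.05, against 17.6% of all. The call was lost without DMSO replicate 1 (adjusted p = 0.0773), DMSO replicate 2 (0.0579) or si-Control replicate 1 (0.0797), with differences of 0.70, 0.78 and 0.68. SERPINA3, the other with a small unadjusted p, averaged 85.6 ± 6.73 in si-Control and 35.0 ± 4.97 in DMSO, a difference of 1.00 ± 0.43 that did not pass (adjusted p = 0.271).

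**Figure D3:**
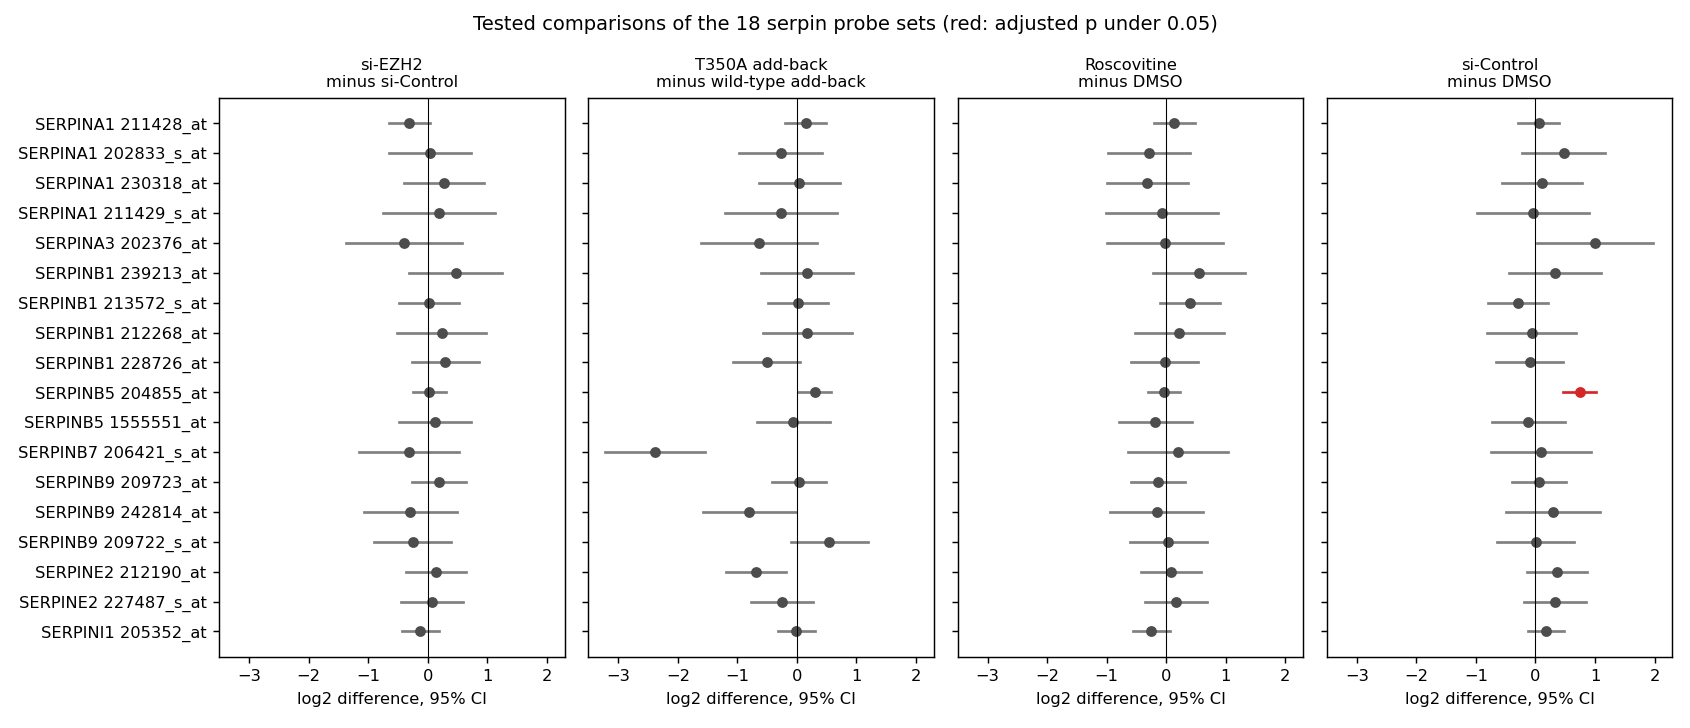
Log2 difference (point) and 95% confidence interval (line) of each of the 18 serpin probe sets in the 4 comparisons that were tested, with red for an adjusted p under 0.05. SERPINB5 in si-Control minus DMSO is the only red point, and SERPINB7 in the T350A add-back minus the wild-type add-back, at -2.38, lies farthest from 0.

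Few of the other serpins were called. Of 23 other serpin genes measured, each by its brightest probe set, limma called 2 higher and 0 lower with TSA, where 19.4% and 20.5% of 19775 genes were. These were AGT, the angiotensinogen gene (269 with TSA, 106 in DMSO, 1.22 ± 0.12, adjusted p = 4.29e-05), and SERPINA5, the protein C inhibitor gene (76.5 with TSA, 41.7 in DMSO, 0.68 ± 0.20, adjusted p = 0.0300). In the T350A add-back against si-EZH2 0 of 23 were called, where 0.435% and 0.0809% of genes were called higher and lower. Of the 23, 1 had an unadjusted p under 0.05, a share not counted over all genes there. In the wild-type add-back 1 was called higher and 0 lower, where 2.64% and 5.46% of genes were, and it was the clade B gene SERPINB8 (383 in the wild-type add-back, 273 in si-EZH2, 0.46 ± 0.10, adjusted p = 0.0307). The 0.57 of SERPINB8 in the T350A add-back did not pass. The median difference of the 23 was 0.12 with TSA, 0.08 in the T350A add-back and -0.05 in the wild-type add-back, against 0.0085, -0.0014 and -0.05 over all genes.

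The serpins that share a chromosome with these genes were read as well. SERPINA1 and SERPINA3 lie on chromosome 14, and of the 7 other serpins measured there the differences from si-EZH2 ran from -0.14 to 0.23 in the T350A add-back and from -0.36 to 0.24 in the wild-type add-back, against 5.06 and 5.70 for SERPINA3. SERPINB5 and SERPINB7 lie on chromosome 18 with 7 other measured serpins, which ran from -0.21 to 0.57 in the T350A add-back and from -0.41 to 0.61 in the wild-type add-back, against 2.70 and 5.08 for SERPINB7. With TSA the chromosome 18 genes ran from -0.09 to 0.32, against 1.97 for SERPINB5. These are ranges, with no test between genes.

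**Figure D4:**
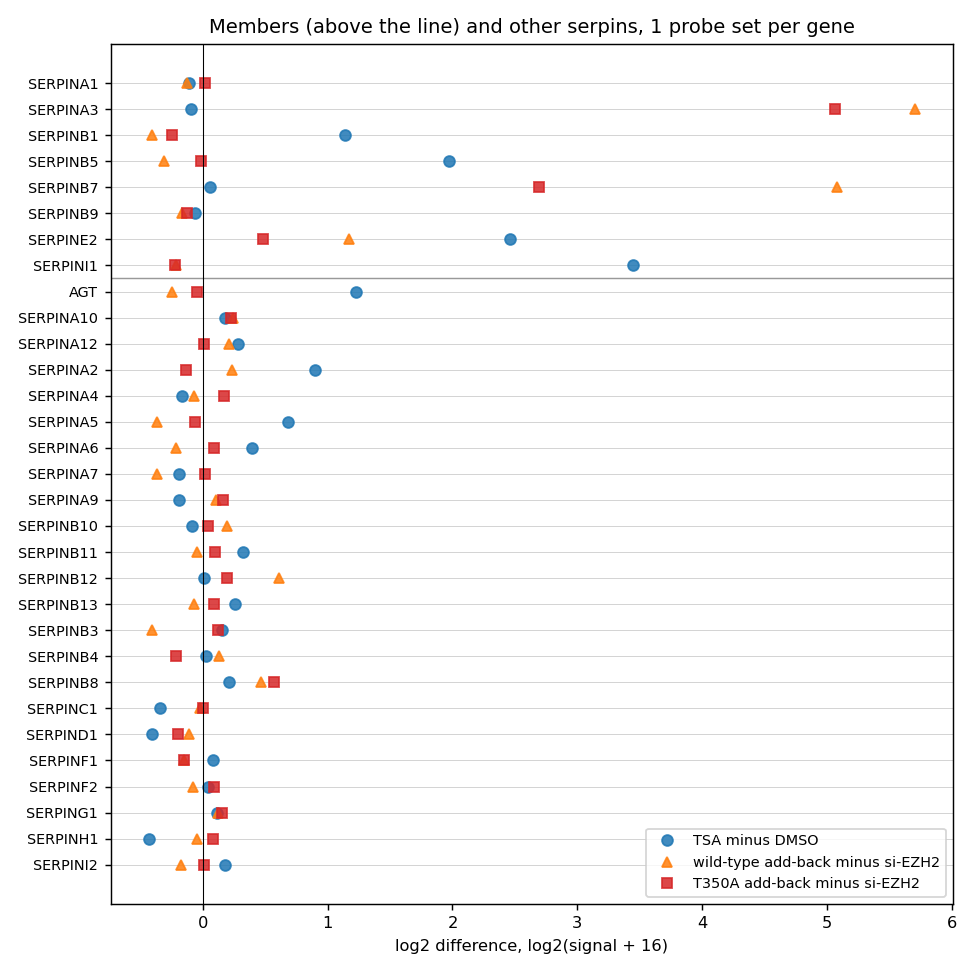
Log2 differences of the 8 measured member genes (above the line) and 23 other serpins, 1 probe set per gene, for TSA minus DMSO (circles), the wild-type add-back minus si-EZH2 (triangles) and the T350A add-back minus si-EZH2 (squares). The members were picked for such responses, and the other serpins reach at most 1.22 (AGT with TSA).

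The proteases that serpins inhibit and the inhibitors of other families were counted in the same fit. With TSA, where 19.4% of all genes were called higher and 20.5% lower, 0 of 17 proteases rose and 4 fell, a share of lower calls near that of all genes. Among the 4 were the kallikreins KLK2 (49.8 with TSA, 4064 in DMSO, -5.96 ± 0.21) and KLK3 (317 with TSA, 10266 in DMSO, -4.95 ± 0.18) and the membrane protease TMPRSS2 (216 with TSA, 3197 in DMSO, -3.80 ± 0.23), with adjusted p from 9.76e-08 to 1.6e-06. Of 27 non-serpin inhibitors 5 rose and 3 fell with TSA, neither share above that of all genes. The metalloproteinase inhibitor TIMP3 rose most (1070 with TSA, 82.3 in DMSO, 3.47 ± 0.13) and TFPI, the tissue factor pathway inhibitor, fell most (287 with TSA, 3749 in DMSO, -3.64 ± 0.12). In the wild-type add-back, set against si-EZH2, where 2.64% of all genes were called higher and 5.46% lower, KLK2 was the only 1 of 17 proteases called (1869 in the add-back, 3674 in si-EZH2, -1.02 ± 0.21, adjusted p = 0.0264), and 2 of 27 inhibitors rose, the elastase inhibitor elafin gene PI3 (797 in the add-back, 119.5 in si-EZH2, 2.46 ± 0.32, adjusted p = 0.00592) and the cystatin gene CSTB (0.32 ± 0.08, adjusted p = 0.0486). In the T350A add-back 0 of 17 proteases and 0 of 27 inhibitors were called, where 0.435% of all genes were called higher and 0.0809% lower. Of these lists 2 and 5 genes had an unadjusted p under 0.05, a share not counted over all genes there. Because SERPINA3 is an acute-phase gene, others of that kind were counted too. Of 16 measured, 2 rose with TSA, HP and FGB, and C3 fell, next to the shares of all genes given above for TSA. Again of 16, 2 rose in the T350A add-back against si-EZH2, where 0.435% of all genes were called higher, the complement gene CFB (461 in the add-back, 48.2 in si-EZH2, 2.91 ± 0.33, adjusted p = 0.00954) and the lipocalin gene LCN2 (695 in the add-back, 99.3 in si-EZH2, 2.57 ± 0.36, adjusted p = 0.0256). In the wild-type add-back, where 2.64% of all genes were called higher, 3 rose, CFB (1324 in the add-back, 48.2 in si-EZH2, 4.27 ± 0.33), LCN2 (2382 in the add-back, 99.3 in si-EZH2, 4.25 ± 0.36) and LRG1 (124 in the add-back, 69.2 in si-EZH2, 0.71 ± 0.16), and 0 fell. For si-EZH2 minus si-Control, the T350A minus the wild-type add-back and Roscovitine minus DMSO, limma called 0 of all 4 lists. Over all genes 0.339%, 0.0607% and 1.57% were called, in that order. At an unadjusted p under 0.05 a list had 0 to 7 genes. Over all probe sets that share was 8.94%, 13.4% and 12.5%, in the same order. In si-Control minus DMSO limma called 1, where 7.66% of all genes were, the calpain inhibitor gene CAST (0.38 ± 0.07, adjusted p = 0.0132).

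Genes with the most similar pattern were ranked by Pearson correlation of log2(signal + 16) over the 14 arrays, among 14385 genes, as a description with no test, since the arrays fall into groups that share their treatment. SERPINA3 was closest to IRAK2 (r = 0.995), TNFSF18 (0.989), ZC3H12C (0.987), CXCL10 (0.986) and PNRC1 (0.985). CXCL10, a chemokine, averaged 1703 in the T350A add-back and 2988 in the wild-type add-back, against 88.7 in si-EZH2. SERPINB7 was closest to TNIP1 (0.983), LCN2 (0.983), IL32 (0.981), MMP7 (0.977) and KMO (0.976). LCN2, like SERPINB7, was lower in the T350A add-back (695) than in the wild-type add-back (2382), and IL32 averaged 147 in the T350A and 518 in the wild-type add-back, while it was listed at 1.00 in si-EZH2. SERPINI1 was closest to LYSMD4 (0.994), RSPH4A (0.993), GNAI2 (0.992), L1CAM (0.992) and CCDC82 (0.992). L1CAM, a neural adhesion molecule, averaged 649 with TSA, against 4.84 in DMSO.

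Marker lists moved with TSA as well. The summed signal of 8 measured luminal markers of 10 listed was 14263 to 14947 on the TSA arrays, against 34800.2 to 36063 in DMSO, and in the transfection experiment 31529 to 36066 in the T350A add-back and 25816 to 31881 in the wild-type add-back, against 35874 to 36452 in si-EZH2. With TSA 6 of the 8 fell and 1 rose in limma: KLK3, KLK2 and TMPRSS2, given above, were among those lower, KRT8 rose (4713 with TSA, 2467 in DMSO, 0.93 ± 0.09, adjusted p = 2.89e-05), and KRT18 was at 6583 with TSA and 7253 in DMSO. The sum of 5 of 6 basal or androgen-independent line markers was 1628 to 1679 with TSA, against 764 to 796 in DMSO, and 2 of the 5 rose in limma, VIM (1390 with TSA, 561 in DMSO) and CAV1 (86.8 with TSA, 23.2 in DMSO). VIM made up most of the sum, the median difference of the 5 was -0.11, and KRT5 (58.5 with TSA, 65.9 in DMSO), AXL (54.7 with TSA, 61.95 in DMSO) and CD44 (63.4 with TSA, 68.1 in DMSO) were not called. The sum was 1242 to 1251 in the T350A add-back and 1269.5 to 1363 in the wild-type add-back, against 1181 to 1241 in si-EZH2. The sum of 6 blood cell markers of 7 listed was 821 to 833 with TSA and 852 to 909 in DMSO, and 942 to 1005 in the T350A add-back, 882 to 956 in the wild-type add-back and 836 to 904 in si-EZH2. Of the fibroblast and endothelial list, all 6 genes were measured. Their sum was 2206 to 3021 in the T350A add-back, 2120 to 2230.0 in the wild-type add-back and 2212 to 2574 in si-EZH2. It was 2529 to 2631 with TSA and 2256 to 2307 in DMSO. With TSA limma called 1 of the 6 higher, COL1A1 (1142 with TSA, 398 in DMSO). It called 2 lower, COL3A1 (66.7 with TSA, 126.6 in DMSO) and VWF (80.3 with TSA, 139.8 in DMSO), next to the shares of all genes given above. The median difference of the 6 was -0.14. The 5 hepatocyte markers summed to 469 to 627 over all 14 arrays. The part of these shifts in the serpin values was not tested.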

How the data were processed

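Biotin-labelled RNA of 14 LNCaP samples was hybridised to Affymetrix arrays, 1 per sample, per the labels. Linear intensity of 54613 probe sets was deposited, summarized by the authors with a method and scaling not given in the sources used here. A second deposited table holds the same intensity values for 7022 of them. Of the probe sets, 41091 carried 1 gene symbol (41037 matched to RefSeq by gene identifier), 1801 several and 11721 none.

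Signals were used as log2(value + 16), computed here. All 54613 probe sets entered 1 limma 3.58.1 model of 7 group means (R 4.3.3; 7 residual and 2.09 prior degrees of freedom), adjusted over all of them by the Benjamini-Hochberg method, with calls at an adjusted p under 0.05. Gene lists were counted with the brightest probe set of each of 19775 genes. The rule named each member, up to 3 called genes per list and direction, and the 5 genes most alike. Members, lists and tests were chosen with earlier results of these data known. The steps were tested on simulated data. Alternatives were quantile normalization, equal array medians, pseudocounts of 1 and 64, the brighter probe sets, 1 probe set per gene and a fit to each experiment by itself. Others were the replicate number as a block, a prior that is robust and follows intensity, and fits without 1 array. A further fit left out replicate 2 of both Roscovitine and the T350A add-back. Tables used pandas 2.3.3 in Python 3.11.15 and figures matplotlib 3.10.9. The number of arrays limits the precision.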

Additional observations from a re-analysis of the deposited data

How the results depend on the processing

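The number of member probe sets called stayed at 0 for si-EZH2 minus si-Control and for Roscovitine minus DMSO under each of the 14 fits without 1 array and 10 other settings. For the T350A add-back minus the wild-type add-back it was 1 rather than 0 with each array at the same median, with only the probe sets of higher mean signal and with a robust prior that follows intensity (SERPINB7 each time, adjusted p = 0.0453, 0.0223 and 0.0105). When 1 array was left out the count stayed at 0 except without wild-type add-back replicate 2, which leaves 1 array in that group. For si-Control minus DMSO the count of 1 changed in some fits without 1 array. It also changed without replicate 2 of both Roscovitine and the T350A add-back. Each of these fits leaves 1 array in a group. SERPINE2 joined SERPINB5 without either wild-type add-back array. Its difference stayed at 0.37 there, while the estimate of spread, which all groups share, changed. The cause of the change without replicate 2 of both Roscovitine and the T350A add-back was not tested. With a replicate block the counts were 0, 0, 0 and 1, as without it. Nothing in the labels says whether equal replicate numbers pair the samples. The correlations of replicate differences between groups ran from -0.269 to 0.702 over the 21 pairs of groups. They cannot decide it, since a shared effect could be small beside the spread between arrays. Signals under 50 limit most of the probe sets.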
